A study of Mus musculus with 6 samples.

Results

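The 36 genes described here encode the glucose and lactate transporters, the enzymes of glycolysis, the enzymes that direct pyruvate to lactate or to the mitochondrion, and the core of the oxygen-sensing machinery. They were chosen by symbol, and all 36 were found among the 53677 gene symbols of the deposited table. RNA came from ST-HSC, the short-term stem cells of the blood, which are multipotent bone marrow progenitors with limited self-renewal. The sort took cells with Kit and CD48 but neither lineage markers nor CD150 from C57BL/6J mice, and 3 wild-type (WT) mice, with the genotype label dnTCF4-/-, were compared with 3 mice that express dnTCF4, with the label dnTCF4+/+. dnTCF4 is a dominant-negative form of TCF4, which competes with native TCF/LEF factors for their DNA sites without recruiting β-catenin. The labels used here name neither the promoter that drives dnTCF4, nor a Cre line, nor the age of the mice. The design compares the transcripts of these cells with and without expression of dnTCF4.

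Glycolysis splits glucose into pyruvate. Its early steps spend ATP to make triose phosphates, and its later steps make ATP and NADH. Lactate dehydrogenase turns pyruvate into lactate, while the pyruvate dehydrogenase (PDH) complex feeds it into the mitochondrion unless PDH kinases switch that complex off. Many steps are catalysed by several isoenzymes encoded by separate genes, of which some belong to muscle, brain or liver. When oxygen is plentiful, the prolyl hydroxylases (EGLN proteins) mark the transcription factor subunit HIF1α for the ubiquitin ligase subunit VHL, and it is degraded. When oxygen is scarce HIF1α is stable and raises many glycolytic genes. Blood stem cells of the bone marrow are known for relying on glycolysis.

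Levels are in RPKM, which scale the reads of a gene by its length and by the depth of its library. The step of the values gave 61800000 to 67700000 counted reads per WT library and 57400000 to 110900000 per dnTCF4 library. A mean of 1 RPKM or more was reached by 11326 genes, 33 of them members. dnTCF4 replicate 3 stood apart, with correlations across genes of 0.87 to 0.93 with the other 5 libraries, against 0.90 to 0.96 between those 5. The deviation of a gene in a library from its mean over the 6 libraries was related to the GC content of its transcript, with Spearman's rho across 11148 genes of 0.29 in WT replicate 2, 0.36 in dnTCF4 replicate 1 and -0.31 in dnTCF4 replicate 3. Immunoglobulin genes took 6.93% to 14.3% of the reads of WT libraries and 0.702% to 1.48% of those of dnTCF4 libraries, and RPKM of every other gene is scaled to totals that include them. Tcf7l2, the gene of TCF4, was at 1.3 to 1.69 RPKM in WT and 1.99 to 2.80 in dnTCF4, and its level does not separate the transgene from the native gene. The sort-gate gene Cd48 was at 813 to 1415 RPKM and Kit at 35.5 to 97.1, while Slamf1, which encodes the excluded CD150, was at 0.744 to 1.18. Summed levels of the neutrophil markers were 622 to 3128 RPKM in WT and 3078 to 7611 in dnTCF4, with 9 of 10 tested markers of 11 higher in dnTCF4. Summed erythroblast markers were at 18.3 to 32.7 and 55.8 to 98.0 RPKM, megakaryocyte markers at 91.7 to 116 and 177 to 195, macrophage and dendritic cell markers at 78.2 to 89.1 and 103 to 120 (most of it Cd68, with 3 of 6 tested markers higher in dnTCF4), and plasma cell markers at 2622 to 7834 and 305 to 669, most of it Jchain. B cell markers (121 to 203 and 99.6 to 143 RPKM) and T and NK cell markers (993 to 1230 and 748 to 1168) overlapped between the genotypes. Nearly all of the T and NK cell sum was Nkg7, at 743 to 1221 RPKM. No marker was at 0 in all libraries, while Pax5, which defines B cells, was at 0.0466 RPKM or less and Cd3e, of T cells, at 0.502 or less. Whether these cells contribute to the values below was not tested. In sorted pools, fewer cells of a type and less RNA per cell cannot be told apart.

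No member passed the test between the genotypes. Of the 33 tested members, 0 passed limma at an adjusted p under 0.05, against 0.3% of all 11326 genes tested, and 0 had an unadjusted p under 0.05, against 9.62% of all genes. The second count changed with the libraries kept, the model and the scaling. Without dnTCF4 replicate 3 it was 3 of 33 members, beside 879 of 11185 genes. With library weights it was 3 of 33, beside 1439 of 11326. With the replicate number as a block it was 2 of 33, beside 1684 of 11326. After median ratio scaling it was 2 of 33, beside 711 of 11304. Without WT replicate 2, WT replicate 3 or dnTCF4 replicate 1 it stayed at 0. Log2 fold changes, dnTCF4 minus WT on the scale of log2(RPKM + 1), ran from -0.80 (Eno1) to 0.52 (Aldoc). Their median was 0.01, against 0.14 for all genes tested, with 17 members above 0 and 16 below, where 68.5% of all genes were above 0. When libraries were rescaled without their immunoglobulin genes, 12 members were above 0 and 21 below, around medians of -0.16 for members and -0.02 for all genes, and after median ratio scaling the split was 11 and 22, around -0.17 and -0.04. Without dnTCF4 replicate 3 the split was 24 and 9, around 0.05 and 0.11. WT and dnTCF4 values were fully separated for 2 members, Ldhb and Pdk2, which is 6.06% of the members and 17.7% of all genes. In both dnTCF4 was above WT, as for 15.4% of all genes, while dnTCF4 was below WT for 0 of 33 members and 2.26% of all genes. With the replicate number as a block 0 members passed as well, against 0.433% of all genes. Standard errors of 0.15 to 0.57 leave wide intervals. A fall of 1 on the log2(RPKM + 1) scale is inside the 95% interval of Eno1, Aldoa, Pfkl, Pkm, Bnip3, Slc2a3, Slc2a1 and Egln3. A rise of 1 is inside that of Aldoc and Pfkfb4. A 2-fold change of RPKM is less than 1 on this scale, since 1 RPKM is added before the logarithm. Such a change can thus be inside the interval of further members.

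**Figure D1:**
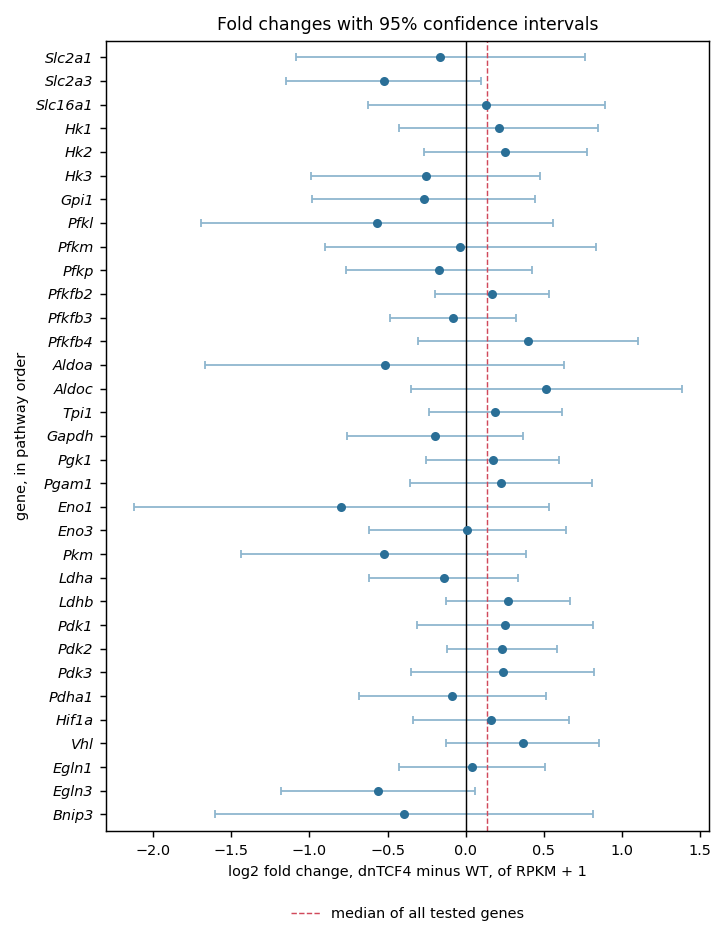
Log2 fold change (dnTCF4 minus WT, of RPKM + 1) of the 33 tested genes in pathway order, with points for the limma estimate and bars for its 95% confidence interval (n = 3 libraries per genotype). All 33 intervals include 0, and the dashed line marks the median of all genes tested, 0.14.

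Members differed widely in level. Compared per length, lactate dehydrogenase A (Ldha) was the most abundant member, with 639.5 to 993 RPKM over the 6 libraries. Glyceraldehyde-3-phosphate dehydrogenase (Gapdh, 277 to 492 RPKM) and triose phosphate isomerase (Tpi1, 343 to 507) followed, and their ranges overlap. Enolase 1 (Eno1), aldolase A (Aldoa), phosphoglycerate kinase 1 (Pgk1), pyruvate kinase (Pkm) and Ldhb had means of 126.1, 108, 104.6, 94.1 and 86.1 RPKM with ranges that overlap, and glucose-6-phosphate isomerase (Gpi1) had 55.9. The enzymes that control the rate of the pathway, the hexokinases and phosphofructokinases, were at means of 5.43 to 17.3 RPKM, and the transporters, PDH kinases and hypoxia control genes other than Bnip3 were at 6.74 or less. Eno2, the neuronal enolase, Slc16a3, a lactate exporter of glycolytic cells, and Pdk4, the PDH kinase raised by fasting in many tissues, did not reach the mean of 1 RPKM that the test required.

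**Figure D2:**
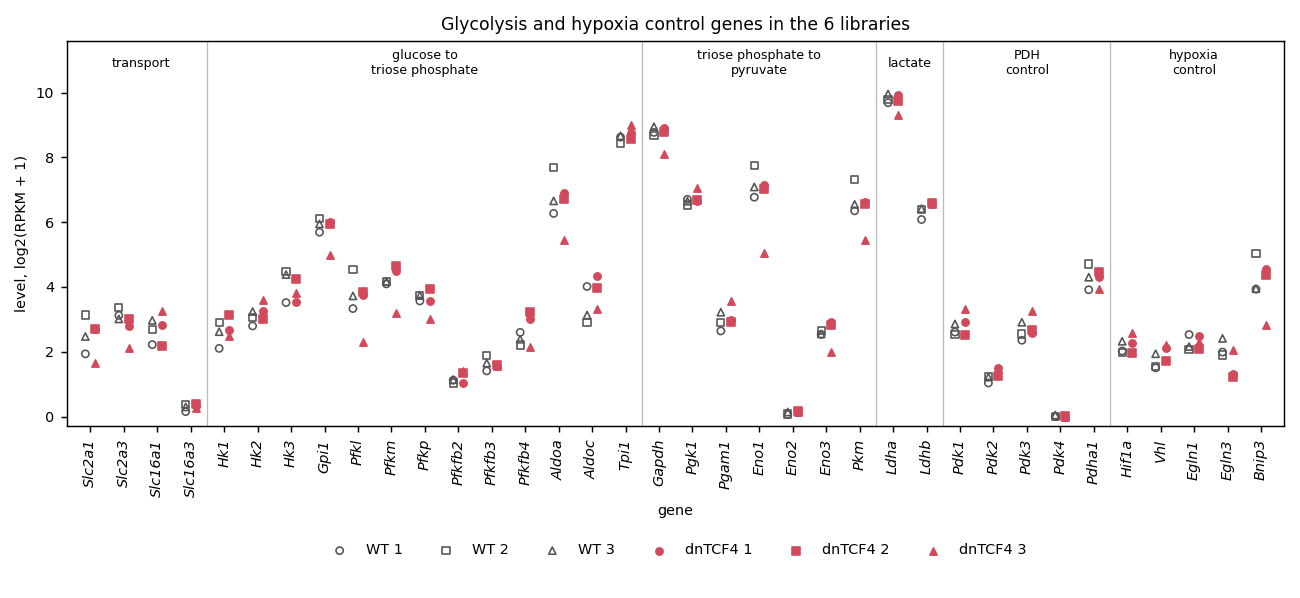
Level of each of the 36 genes as log2(RPKM + 1) in pathway order, with open grey symbols for the 3 WT libraries and filled red symbols for the 3 dnTCF4 libraries. Ldha, Tpi1 and Gapdh lie highest, Eno2 and Pdk4 near 0, and dnTCF4 replicate 3 (filled triangle) lies lowest for Eno1, Aldoa, Pkm, Pfkl and Bnip3.

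Promoter sequence is shown for 6 members, because HIF1 binds sites with ACGTG and these genes stand for the patterns described below. ACGTG is called the core here, and other forms of the HIF site were not searched for. RefSeq starts on GRCm38.p6 were matched for 35 of the 36 members, with 51 windows of 250 bases that end at the base before the start. ACGTG on either strand (CACGT on the strand shown) was found in 23 of the 51 windows, 45.1%, against 16.6% of 32851 windows of all genes. Some windows of the same gene overlap. Counted by gene, 19 of 35 members had a window with the core, against 4998 of 27025 genes. The 6-base palindrome CACGTG, which holds the core on both strands and is also the E-box bound by MYC, was found in 15.7% of the members' windows and 6.0% of all. The windows of the members had a median GC content of 60.4%, against 52.4% for all windows, and the share at matched GC content was not tested. The following are given 5′ to 3′ on the strand of the gene, with the cores in capitals, and a match is a description and no shown site of binding. Ldha (chr7:46845554-46845803, plus strand) holds 2 palindromes and 1 further core, while Ldhb (chr6:142507958-142508207, minus strand) holds none. Bnip3 (chr7:138909507-138909756, minus strand) holds 1 palindrome, Egln3 (chr12:54203875-54204124, minus strand) 1 core, Pgk1 (chrX:106186850-106187099, plus strand) 2 cores and Tpi1 (chr6:124814159-124814408, minus strand) none.
Ldha: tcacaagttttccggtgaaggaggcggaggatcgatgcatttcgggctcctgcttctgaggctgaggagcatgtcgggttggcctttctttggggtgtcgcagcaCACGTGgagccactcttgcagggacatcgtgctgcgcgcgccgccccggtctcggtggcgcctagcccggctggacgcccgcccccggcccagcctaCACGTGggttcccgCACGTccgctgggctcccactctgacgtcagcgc
Ldhb: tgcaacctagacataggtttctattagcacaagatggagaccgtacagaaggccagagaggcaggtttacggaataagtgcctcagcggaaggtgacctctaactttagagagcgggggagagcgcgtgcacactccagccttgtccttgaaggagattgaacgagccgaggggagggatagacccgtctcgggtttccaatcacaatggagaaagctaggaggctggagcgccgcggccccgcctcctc
Bnip3: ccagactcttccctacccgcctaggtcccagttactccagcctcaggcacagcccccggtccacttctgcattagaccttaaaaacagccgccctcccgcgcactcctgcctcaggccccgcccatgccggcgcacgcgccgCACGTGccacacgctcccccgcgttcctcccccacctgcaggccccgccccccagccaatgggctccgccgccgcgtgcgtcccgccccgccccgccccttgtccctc
Egln3: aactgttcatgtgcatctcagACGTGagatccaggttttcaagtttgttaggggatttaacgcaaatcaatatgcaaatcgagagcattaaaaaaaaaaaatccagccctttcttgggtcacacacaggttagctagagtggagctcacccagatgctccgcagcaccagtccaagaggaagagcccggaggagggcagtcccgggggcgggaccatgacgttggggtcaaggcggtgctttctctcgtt
Pgk1: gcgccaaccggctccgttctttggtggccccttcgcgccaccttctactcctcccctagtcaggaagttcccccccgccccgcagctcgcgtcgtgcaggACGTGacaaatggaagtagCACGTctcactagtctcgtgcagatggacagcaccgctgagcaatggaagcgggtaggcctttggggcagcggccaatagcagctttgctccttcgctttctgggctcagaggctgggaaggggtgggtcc
Tpi1: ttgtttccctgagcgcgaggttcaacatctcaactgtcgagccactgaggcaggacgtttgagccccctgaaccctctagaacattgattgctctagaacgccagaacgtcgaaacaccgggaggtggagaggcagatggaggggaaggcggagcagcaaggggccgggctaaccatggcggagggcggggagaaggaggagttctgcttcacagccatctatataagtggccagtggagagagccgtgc

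Of the 2 glucose transporters, Slc2a3 was the higher. Slc2a3, which encodes the high-affinity transporter GLUT3, was at 7.71, 9.28 and 7.08 RPKM in the WT mice and at 5.95, 7.12 and 3.31 in the dnTCF4 mice, always in the order of their replicate numbers. Each dnTCF4 library lay below the WT library of the same number, but the groups overlapped because dnTCF4 replicate 2 exceeded WT replicate 3. The log2 fold change was -0.52 (SE 0.27, limma adjusted p = 0.59), and -0.26 without dnTCF4 replicate 3. Slc2a1, which encodes the basal transporter GLUT1, was at 2.83, 7.80 and 4.55 RPKM in WT and 5.45, 5.53 and 2.17 in dnTCF4. Its highest and lowest libraries, WT replicate 2 and dnTCF4 replicate 3, differed by 3.60-fold, and the groups overlapped. Slc2a3 took 52.2% to 73.2% of the RPKM of the pair and led in 6 of 6 libraries, with 65.0% to 82.3% per longest coding transcript. Of the lactate carriers, Slc16a1 (MCT1) was at 3.52 to 8.60 RPKM and took 91.7% to 97.7%, against 0.113 to 0.319 RPKM for Slc16a3 (MCT4).

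Hexokinase, which traps glucose in the cell, was led by Hk3, an isoenzyme of white blood cells, in 6 of 6 libraries. Hk3 was at 10.5, 21.1 and 19.9 RPKM in WT and 10.6, 18.0 and 13.1 in dnTCF4, Hk2 at 5.95 to 11.2 and Hk1 at 3.30 to 7.73. The Hk3 share of the 3 was 53.1%, 60.5% and 59.3% in WT and 43.4%, 55.1% and 45.4% in dnTCF4. It was lower in dnTCF4 in each same-numbered pair, but by deposited RPKM the groups overlapped (57.6% ± 4.0 and 47.9% ± 6.27, SD, n = 3 each). Two-sided, the exact permutation test gave p = 0.2, or 0.4 adjusted over the 10 families. The difference in share of -9.69 percentage points was -9.62 per longest coding transcript, a length chosen after seeing the data. Per coding transcript the groups did not overlap (exact permutation test, p = 0.1, n = 3 each, not adjusted over families). Whether the groups overlap thus depended on the length used. Hk2, the insulin-regulated isoenzyme, had a log2 fold change of 0.25 (SE 0.22) and Hk3 of -0.26 (SE 0.31), and neither passed limma (adjusted p = 0.715 and 0.755). The value of Hk2 was 0.14 without WT replicate 1, 0.40 without dnTCF4 replicate 2 and 0.09 without dnTCF4 replicate 3. That of Hk3 was -0.56 without WT replicate 1, -0.45 without dnTCF4 replicate 2, -0.13 without WT replicate 3, and -0.09 without either WT replicate 2 or dnTCF4 replicate 1.

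Phosphofructokinase, the step that commits sugar to glycolysis, had no single leading isoform. By deposited RPKM the muscle-type subunit Pfkm led, with 32.8% to 47.7% of the family and the highest value in 5 of 6 libraries. In WT replicate 2 the liver-type Pfkl was higher, at 22.4 RPKM against 16.9. The deposited values gave whole reads when multiplied by the union of all exons, which is 13401 bases for the platelet-type Pfkp. At the union, reads were not whole in every library for Pfkm (3340 bases), Aldoa and Pgam1. Their lengths in the authors' annotation may thus differ. The reads of the family were also divided by the longest coding transcript (4145 bases for Pfkp and 2879 for Pfkm), a choice made after seeing the data. Pfkp then led with 40.0% to 58.1%, and Pfkm took 19.7% to 30.1%. In the other 9 families both lengths gave the same leading isoform. Pfkl was at 9.08, 22.4 and 12.2 RPKM in WT and 12.6, 13.3 and 3.95 in dnTCF4, which is a 5.67-fold range with the genotypes overlapping. Pfkm was at 16.1, 16.9 and 17.0 in WT and 21.4, 23.9 and 8.24 in dnTCF4. Its WT values were within 1 RPKM of each other, and the dnTCF4 values lay on both sides of them.

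Pfkfb4 led the bifunctional enzymes that set fructose-2,6-bisphosphate, the activator of phosphofructokinase. It was at 5.06, 3.63 and 4.23 RPKM in WT and 7.02, 8.40 and 3.42 in dnTCF4, or 48.7% to 70.3% of the 3 members, against means of 2.07 RPKM for Pfkfb3 and 1.28 for Pfkfb2. The log2 fold change of Pfkfb4 was 0.39 (SE 0.30, limma adjusted p = 0.70) and was 0.72 without dnTCF4 replicate 3, which held the lowest of the 6 values, and 0.18 without dnTCF4 replicate 2, which held the highest.

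Aldolase was read mainly from Aldoa, the form of muscle and blood cells, with 82.6% to 97% of the pair. Aldoa (GRCm38 chr7:126795234-126800751) was at 76.2, 206.1 and 99.9 RPKM in WT and 119.1, 104.3 and 42.3 in dnTCF4. Aldoc, the brain form, was at 15.2, 6.48 and 7.78 RPKM in WT and 19.2, 14.5 and 8.89 in dnTCF4. WT replicate 2 held the highest Aldoa and the lowest Aldoc, and for both genes the genotypes overlapped. Aldoc was higher in dnTCF4 in each same-numbered pair, as were 37.3% of all genes, and its log2 fold change was 0.52 (SE 0.37, limma adjusted p = 0.69). It was 0.28 without dnTCF4 replicate 1, 0.29 without WT replicate 2, 0.80 without dnTCF4 replicate 3 and 0.85 without WT replicate 1.

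**Figure D3:**
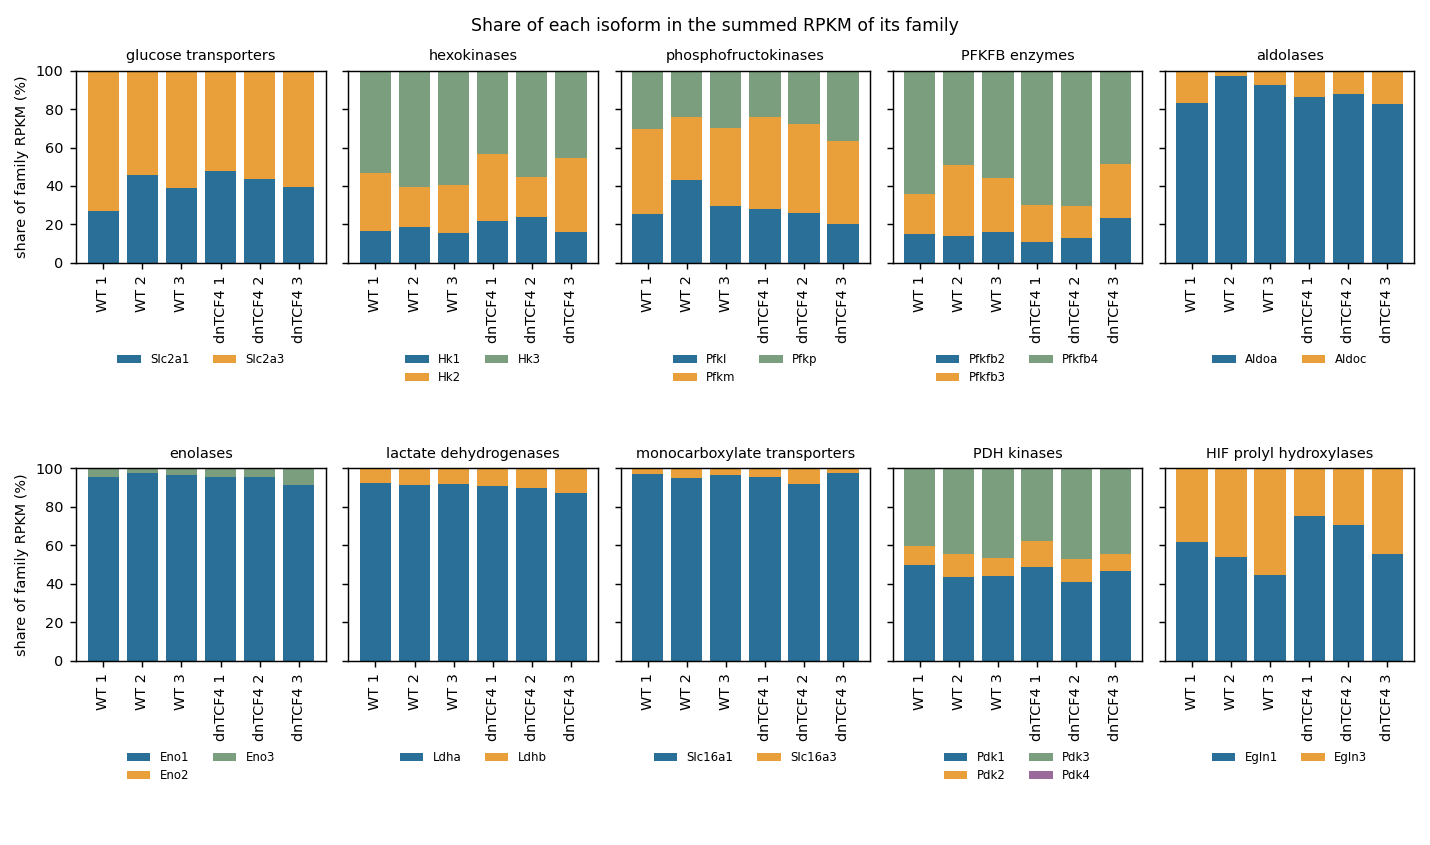
Share (%) of each isoform in the summed RPKM of its family, as a stacked bar for each of the 6 libraries, in 10 families. Aldoa, Eno1, Ldha and Slc16a1 hold over 80% of their families in every library, and the phosphofructokinases, PDH kinases and HIF prolyl hydroxylases are split between isoforms.

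The steps around and after the triose phosphates held both steady and highly variable members. Tpi1, which interconverts the triose phosphates, was at 394, 343 and 405 RPKM in WT and 427, 376 and 507 in dnTCF4. Pgk1, the first enzyme that makes ATP, was at 103.3, 91.4 and 99.3 in WT and 100.5, 101 and 132 in dnTCF4. Both had WT replicate 2 lowest and dnTCF4 replicate 3 highest, with the genotypes overlapping. Eno1 (GRCm38 chr4:150236721-150248879), which makes phosphoenolpyruvate, was at 108.2, 212.5 and 134.9 RPKM in WT and 140.4, 128.4 and 32.1 in dnTCF4. Pkm (chr9:59656368-59679375), which makes pyruvate, was at 80.6, 157 and 92.7 in WT and 97.9, 93.3 and 42.5 in dnTCF4. Here WT replicate 2 was highest and dnTCF4 replicate 3 lowest, the reverse of Tpi1 and Pgk1, and the other 4 libraries lay close together across genotypes. Gapdh was at 436, 409 and 492 in WT and 483, 436 and 277 in dnTCF4, again lowest in dnTCF4 replicate 3.

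The log2 fold changes of Eno1 and Pkm were -0.80 (SE 0.57) and -0.53 (SE 0.39), with limma adjusted p of 0.69 for both. Without dnTCF4 replicate 3 they were -0.12 and -0.14, without WT replicate 2 -0.53 and -0.24, and without both that library and WT replicate 2 they were 0.15 and 0.14. Eno1 took 95.7%, 97.6% and 96.4% of the enolases in WT and 95.4%, 95.3% and 91.2% in dnTCF4, and Eno3, the muscle form, nearly all of the rest at 2.99 to 6.60 RPKM. The shares of the genotypes did not overlap (96.6% ± 0.922 and 94.0% ± 2.39, SD, n = 3 each). The exact permutation test (two-sided) gave p = 0.1, the lowest value possible with 3 and 3 libraries, and 0.4 after adjustment over the 10 families. The difference in share of -2.57 percentage points was -1.19 without dnTCF4 replicate 3 and -1.17 per longest coding transcript. Without both dnTCF4 replicate 3 and WT replicate 2 it was -0.70. Pgam1, a mutase with processed copies in the genome, was at 5.25 to 10.8 RPKM, far below its neighbours in the pathway. The deposited values do not show how reads that also match copies were counted, so levels of Pgam1, Gapdh, Aldoa, Ldha, Pgk1 and Eno1 are uncertain, and the Eno1 copy Eno1b was at 1.29 to 6.56 RPKM.

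Ratios of enzymes near each other in the pathway, taken within a library, do not depend on how the library was scaled. Tpi1 over Aldoa was 5.17, 1.66 and 4.06 in WT and 3.59, 3.60 and 12.0 in dnTCF4. Pgk1 over Eno1 was 0.954, 0.430 and 0.736 in WT and 0.716, 0.787 and 4.12 in dnTCF4. Pkm over Eno1 was 0.745, 0.740 and 0.687 in WT and 0.697, 0.727 and 1.32 in dnTCF4, highest in dnTCF4 replicate 3 but lowest in WT replicate 3. In the ratios over Aldoa and of Pgk1 over Eno1, WT replicate 2 was lowest and dnTCF4 replicate 3 highest. That order follows from the opposite extremes of the single genes given above. The other dnTCF4 libraries were near or inside the range of WT replicates 1 and 3.

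A minority of members had their extremes in these 2 libraries. WT replicate 2 held the highest and dnTCF4 replicate 3 the lowest value for 8 of 33 members (Slc2a1, Slc2a3, Gpi1, Pfkl, Aldoa, Eno1, Pkm and Bnip3), or 24.2%, against 11.9% of all genes tested. The reverse held for 3 of 33 (Tpi1, Pgk1 and Pfkfb2), or 9.09%, against 13.5% of all genes. dnTCF4 replicate 3 was lowest for 14 of 33 members (42.4%) and highest for 10 (30.3%), where it was lowest for 24.3% and highest for 42.4% of all genes. The within-group standard deviation had a median of 0.34 on the log2(RPKM + 1) scale for members and 0.27 for all genes, and that of Eno1 (0.90) exceeded 97.2% of all genes, that of Bnip3 (0.81) 96.1% and that of Aldoa (0.77) 95.2%. Transcript GC content was 57.4% for Eno1, 57.1% for Pfkl, 56.9% for Aldoa and 57.7% for Pkm, 54.0% for Slc2a1 and 52.1% for Gpi1, above the median of 48.5% over all genes, but 47.4% for Slc2a3 and 41.6% for Bnip3. Across the 33 members, deviations in dnTCF4 replicate 3 had a Spearman's rho with GC content of -0.46, and those in WT replicate 2, dnTCF4 replicate 1 and dnTCF4 replicate 2 of 0.31, 0.33 and 0.32, as a description of genes that share libraries. After each library's trend with GC content was removed, a choice made after seeing the data, the log2 fold change of Eno1 was -0.82 and that of Bnip3 -0.61. Neutrophil markers were highest in dnTCF4 replicate 3 as well (7611 RPKM in sum), and their part in the pattern was not tested.

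**Figure D4:**
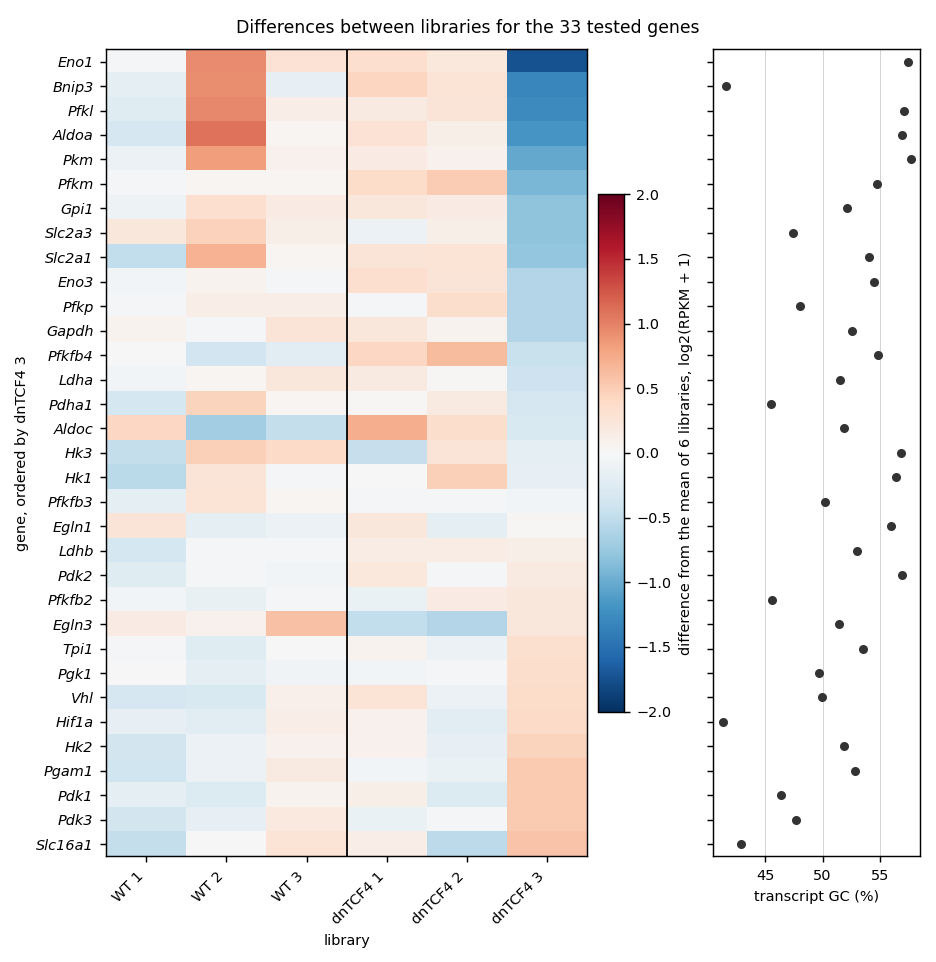
Difference of each tested gene in each library from its mean over the 6 libraries, in log2(RPKM + 1), as colour, with genes ordered by dnTCF4 replicate 3 and transcript GC content (%) at the right. Eno1 (-1.75), Bnip3 (-1.30), Pfkl (-1.28) and Aldoa (-1.18) are lowest in dnTCF4 replicate 3, and the same genes are highest in WT replicate 2.

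Lactate dehydrogenase was almost wholly of the A type, which favours the making of lactate. Ldha was at 823, 875 and 993 RPKM in WT and 967, 862 and 639.5 in dnTCF4. Ldhb, the type of heart muscle, was at 66.8, 83.1 and 84.5 in WT and 94.7, 95 and 92.5 in dnTCF4. All 3 dnTCF4 values of Ldhb lay above the 3 WT values. For Ldhb the log2 fold change was 0.27 (SE 0.17, limma adjusted p = 0.65), with -0.12 to 0.67 as the 95% interval, and 0.06 after median ratio scaling. The share of Ldha, which a single scale factor per library leaves as it is, was 92.5%, 91.3% and 92.2% in WT and 91.1%, 90.1% and 87.4% in dnTCF4. These shares did not overlap either (92.0% ± 0.602 and 89.5% ± 1.92, SD, n = 3 each), again with p = 0.1 in the exact permutation test and 0.4 adjusted over families. The difference of -2.49 percentage points was -1.42 without dnTCF4 replicate 3 and -1.76 per longest coding transcript. Of the pair of promoters printed above, that of Ldha holds ACGTG and that of Ldhb does not. The window of a second Ldha start (chr7:46846832-46847081) holds no ACGTG either. Other forms of the HIF site were not searched for, so the pair may not differ in HIF sites.

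The PDH kinases, which hold pyruvate back from the mitochondrion, were read from Pdk1 and Pdk3 at nearly equal levels by deposited RPKM. Pdk1, a HIF target in many cells, was at 4.72 to 8.95 RPKM and took 41.0% to 49.7% of the family, and Pdk3 was at 4.12 to 8.57 and took 37.5% to 47.1%. Pdk1 was the higher in 3 of 6 libraries, so neither dominates by deposited RPKM. Per longest coding transcript the means were 9.07 for Pdk1 and 6.96 for Pdk3, and Pdk1 took 45.5% to 54.2%. Pdk2 was at 1.05, 1.36 and 1.33 RPKM in WT and 1.805, 1.37 and 1.75 in dnTCF4, where the lowest dnTCF4 value exceeded the highest WT value by a margin smaller than the spread within either genotype. Its log2 fold change was 0.23 (SE 0.15, limma adjusted p = 0.66). Pdk4 had 8 reads in WT replicate 3, 1 in dnTCF4 replicate 2 and 0 in the other 4 libraries, where a count of 0 allows up to 3 reads. Pdha1, the catalytic subunit that these kinases phosphorylate, was at 14.1, 25.1 and 18.7 RPKM in WT and 18.6, 20.8 and 14.2 in dnTCF4, with overlapping groups. Exons of Map3k15 on the opposite strand cover 16.2% of the exon length of Pdha1, and the library kit does not mark strand.

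Among the hypoxia control genes, Egln3 had the smallest p of all members. This prolyl hydroxylase (GRCm38 chr12:54178981-54203860), itself raised by HIF in many cells, was at 2.98, 2.72 and 4.32 RPKM in WT and 1.51, 1.36 and 3.12 in dnTCF4. Each dnTCF4 library lay below the WT library of the same number, as for 4.78% of all genes tested, but dnTCF4 replicate 3 exceeded WT replicates 1 and 2. Its log2 fold change of -0.56 had an SE of 0.26 and a 95% confidence interval from -1.18 to 0.06 (limma adjusted p = 0.57). It kept its sign in each alternative run for it, from -0.92 to -0.41, and passed in none of them (its mean is below the filter of 5 RPKM). Unadjusted p was 0.069, or 0.0078 with the replicate number as a block, where 14.9% of all genes and 2 of 33 members (Egln3 and Slc2a3) were under 0.05. Egln1 led the pair in 5 of 6 libraries, and Egln3 in WT replicate 3. Egln1, the main oxygen sensor in most cells, was at 4.79, 3.21 and 3.47 in WT and 4.64, 3.28 and 3.90 in dnTCF4. Egln1 took 61.7%, 54.1% and 44.5% of the pair in WT and 75.4%, 70.7% and 55.6% in dnTCF4, higher in each same-numbered pair with overlapping groups (p = 0.2 in the exact permutation test with n = 3 each, and 0.4 adjusted over families).

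Hif1a and Vhl were both highest in dnTCF4 replicate 3. Hif1a, the oxygen-regulated subunit, was at 3.07, 2.95 and 4.01 RPKM in WT and 3.86, 2.90 and 4.94 in dnTCF4. Vhl was at 1.84, 1.91 and 2.83 RPKM in WT and 3.37, 2.31 and 3.65 in dnTCF4. Vhl was higher in dnTCF4 in each same-numbered pair and the groups overlapped, with a log2 fold change of 0.36 (SE 0.21, limma adjusted p = 0.63). Bnip3 (chr7:138890836-138909519), a mitophagy receptor and HIF target, was at 14.3, 32.0 and 14.4 RPKM in WT and 22.4, 19.8 and 6.04 in dnTCF4. Its 5.30-fold range ran from dnTCF4 replicate 3 to WT replicate 2, and its log2 fold change of -0.39 (SE 0.51, limma adjusted p = 0.76) was 0.15 without dnTCF4 replicate 3 and -0.03 without WT replicate 2. Leaving out any other library put it between -0.71 and -0.57.

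Few other genes of these pathways had a small p. Of 102 genes in 5 further lists, 65 were tested and 0 passed limma over all genes, with 4 at an unadjusted p under 0.05, where 0.3% and 9.62% of all genes were under these thresholds. All 4 were in the list of further glycolysis genes, of which 17 of 32 were tested. Pgam2, the muscle mutase, was at 4.05, 2.37 and 1.78 RPKM in WT and 0.963, 0.483 and 0.851 in dnTCF4 (log2 fold change -1.04, SE 0.25, limma adjusted p = 0.20). Fbp1, a gluconeogenic phosphatase that opposes phosphofructokinase, was at 12.35, 30.92 and 15.13 RPKM in WT and 12.28, 9.425 and 3.625 in dnTCF4 (limma adjusted p = 0.51). Tigar, which lowers fructose-2,6-bisphosphate, was at 3.83 ± 0.357 and 2.48 ± 0.724 RPKM (SD, n = 3 each, limma adjusted p = 0.52), and Txnip, an inhibitor of glucose uptake, at 104 ± 14.7 and 169 ± 43.1 (limma adjusted p = 0.41). These 4, picked by their small p, had genotypes that did not overlap, with the first 3 lower and Txnip higher in dnTCF4. Of all 65 tested genes of the lists, dnTCF4 was fully above WT for 9 and fully below WT for 3. Among all genes tested, the like shares were 15.4% and 2.26%. Of 19 tested HIF targets 12 had log2 fold changes above 0, as did 68.5% of all genes, and Narf had the smallest p, at 21.4 ± 1.47 and 29.9 ± 6.40 RPKM (SD, n = 3 each, limma adjusted p = 0.54). Of 13 tested regulators of HIF 10 were above 0, and Cited2, which competes with HIF1α for its coactivators, was at 5.94 ± 1.75 and 10.8 ± 4.59 RPKM (SD, n = 3 each, limma adjusted p = 0.52). Of 8 tested genes of the PDH complex and pyruvate import 6 were above 0, and of 8 of the pentose phosphate pathway 3. The medians were 0.11 for further glycolysis genes, 0.21 for the PDH complex and import, 0.15 for regulators of HIF, 0.10 for HIF targets and -0.14 for the pentose phosphate pathway, beside 0.14 for all genes tested.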

How the data were processed

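RNA-seq was measured in ST-HSC of 3 WT and 3 dnTCF4 mice. Per the labels' protocols, cDNA of polyadenylated RNA was amplified with a SMART-Seq kit, tagged with Nextera XT and sequenced in pairs, without strand information. The submitters' processing notes name STAR, featureCounts, DESeq2, edgeR, mm10 and GRCm38, while the annotation and the treatment of multiply matching reads were not given in the sources used here. The authors deposited RPKM, which are not counts. Multiplied by the union exon length of the reference annotation, 94.5% to 95.2% of values per library came within 0.02 of whole reads, which gave the depths.

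The comparison used limma 3.58.1 (R 4.3.3) on log2(RPKM + 1) of genes whose mean reached 1 RPKM, with a trend in the prior variance, genotype as the only term and Benjamini-Hochberg adjustment over 11326 genes. Shares of isoforms used the exact permutation test in scipy 1.17.1. The fitting was tested on simulated data. Same-numbered mice of the genotypes deviated together (correlations of 0.17, 0.35 and 0.30), so the numbers were taken to pair the samples, and the fit with the number as a block was run beside the main one. The Y-linked gene Ddx3y was read in replicate 1 of each genotype (30.5 and 24.8 RPKM) and was at 0 in the other 4 libraries, so the number also carries sex. The members and lists were chosen with earlier results of these data known. All 36 members are described, and of each further list the 4 genes with the smallest p were candidates for naming. Alternatives were pseudocount, filter, scaling, library weights, block and each mouse left out. The GC correction, the length of the coding transcript and leaving out both WT replicate 2 and dnTCF4 replicate 3 were chosen after seeing the data.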

Additional observations from a re-analysis of the deposited data

How the results depend on the processing

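No member passed limma under any setting (0 of 33, 0 of 36 with no filter, and 0 of 25 at a mean of at least 5 RPKM). In the settings run for each, 10 members kept their sign and 23 turned at least once, where Pdk2, Vhl and Egln3 of the 10 are below the filter of 5 RPKM. A group size of 3 mice and 2 libraries at opposite extremes limit what could be detected, and RPKM cannot show how reads of copies were assigned. The 34 genes called over the whole table became 6 with no filter, 0 with the immunoglobulin genes left out (601 at an unadjusted p under 0.05), 86 with library weights, 124 with the GC correction and replicate block together, and 7 to 34 when each mouse was left out. Of the called genes 5 were higher and 29 lower, against 0 and 26 after median ratio scaling and 32 and 54 with library weights. With the replicate block 49 were called, and the block changed no call among members. For shares neither test could reach 0.05, since the smallest p is 0.1 without the block and 0.25 with a sign flip over the 3 pairs of the replicate block.

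The cause of the turns in sign was not tested. Log2 fold changes that turned were, with GC correction, with or without the replicate block, Pfkfb2 -0.03, Eno3 -0.05, Hif1a -0.06 and Slc16a1 -0.09. With the immunoglobulin genes left out they were Tpi1 -0.01, Pgk1 -0.03, Slc16a1 -0.04, Egln1 -0.12 and Eno3 -0.16. After median ratio scaling they were Hif1a -0.01, Tpi1 -0.03, Pgk1 -0.05, Slc16a1 -0.05, Egln1 -0.14 and Eno3 -0.17. Quantile normalization gave Egln1 -0.08, Eno3 -0.12 and Ldha 0.08, library weights gave Slc16a1 -0.05, Gapdh 0.03 and Pfkm 0.27, and a pseudocount of 0.1 gave Eno3 -0.0031. Without both WT replicate 2 and dnTCF4 replicate 3 they were Pdk3 -0.00084, Pgk1 -0.01, Pdk1 -0.02, Egln1 -0.05, Hif1a -0.05, Slc16a1 -0.09, Ldha 0.01, Pfkfb3 0.04, Pfkp 0.10, Pkm 0.14, Eno1 0.15, Gpi1 0.16, Pdha1 0.26, Pfkl 0.27, Aldoa 0.35, Pfkm 0.43, Slc2a1 0.49 and Bnip3 0.52.

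Leaving out each mouse in turn, the values ran from -0.45 to 0.18 for Slc2a1, -0.12 to 0.42 for Slc16a1, -0.01 to 0.39 for Hk1, -0.45 to 0.06 for Gpi1, -0.30 to 0.42 for Pfkm, -0.39 to 0.08 for Pfkp, -0.20 to 0.04 for Pfkfb3, -0.35 to 0.05 for Gapdh, -0.16 to 0.31 for Eno3, -0.27 to 0.03 for Ldha, -0.28 to 0.11 for Pdha1, -0.06 to 0.18 for Egln1 and -0.71 to 0.15 for Bnip3. The difference in share ran from -2.63 to 0.37 percentage points for Slc16a1 and from -1.99 to 1.98 for Pdk1.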

Other observations

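Isoenzymes outside the chosen genes added to some families. Further paralogs were counted in families other than the phosphofructokinases and PDH kinases, and the leading isoform by mean level stayed the same in them, but its share was smaller in several. Egln2, the third prolyl hydroxylase, was at a mean of 2.14 RPKM, which left Egln1 34.0% to 53.9% of the family. Slc16a7 (MCT2) was at a mean of 1.19 RPKM, which left Slc16a1 67.9% to 85.9%. Pfkfb1 was at a mean of 2.23 RPKM, above Pfkfb3 and Pfkfb2, and left Pfkfb4 34.2% to 59.0%. Slc2a6 and Slc2a9 had means of 1.83 and 1.82 RPKM, and Slc2a3 then held 37.1% to 57.4% of the glucose transporters counted. The testis form Ldhc was at 0.622 RPKM or less.

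The 36 genes together took 0.688%, 0.737% and 0.709% of the summed RPKM outside immunoglobulin genes in WT and 0.650%, 0.642% and 0.449% in dnTCF4, where each dnTCF4 library lay below each WT library. With the immunoglobulin genes included, the 36 genes took 0.385%, 0.540% and 0.528% in WT and 0.609%, 0.621% and 0.422% in dnTCF4, and the genotypes overlapped. Most of each sum came from Ldha, Gapdh and Tpi1, with means of 859.8, 422.2 and 408.5 RPKM, and each of these overlapped between the genotypes. How often other sets of genes separate the genotypes in this way was not tested. In dnTCF4 replicate 3 Gapdh over Tpi1 was 0.547, against 1.11 to 1.22 in the other 5.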
